A study of Homo sapiens with 12 samples.

Results

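BON-1 cells sorted from co-culture with cancer-associated fibroblasts (CAFs) at a BON-1 to CAF ratio of 10:2, the lowest CAF share in the study, were compared with BON-1 cells grown alone, with 3 libraries in each group. Genes were compared where at least 3 of these 6 libraries reached an FPKM of 1, which kept 12597 of the 54261 genes in the table. FPKM counts fragments relative to gene length and to the assigned fragments of the library, so levels of different genes can be read side by side per length. The study held 4 groups of 3 libraries: BON-1 alone, and co-cultures at 10:2, 10:4 and 10:6. Polyadenylated RNA was sequenced, after the BON-1 cells of the co-cultures had been recovered by flow cytometry. The labels give no added allele or agent in either group, and the CAFs are the only labelled difference. They name neither the source of the CAFs nor the sorting marker, the purity of the sort or the time in culture. All libraries carry 1 protocol text, on sorting from the co-culture, which does not say whether BON-1 alone went through the same sort, so sorting and co-culture cannot be told apart here. Nothing states that the 3 libraries of a group came from separate cultures, and the p-values then measure only the spread between libraries, which may be technical.

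BON-1 is an established human line from a metastasis of a pancreatic neuroendocrine tumour. Cells of this kind pack peptide hormones and granins into dense-core granules, cut prohormones with convertases, and release the granules when calcium enters. Cancer-associated fibroblasts lay down collagen and other matrix, often carry a contractile apparatus with smooth muscle actin, and send growth factors and cytokines to tumour cells.

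The libraries of BON-1 alone held 12918760 to 21882537 reads assigned to genes, and those of co-culture 10:2 held 11703624 to 13519681. Of the markers of the labelled cell type, chromogranin A (CHGA) was high in all 6, with a mean of 1347 FPKM alone and 1154 FPKM at 10:2. The neuroendocrine transcription factor INSM1 was high too, at 195 and 170 FPKM. SLC18A1, the vesicular transporter, was low at 3.16 and 3.13 FPKM. TPH1, of serotonin synthesis, was near 0 at 0.0368 and 0.055 FPKM.

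At 10:2, 2614 genes rose and 1027 fell against BON-1 alone, which is 20.8% and 8.15% of the 12597 tested (limma on log2(FPKM + 1), adjusted p under 0.05). In 3392 genes (26.9%) all 3 co-culture libraries lay above all 3 of BON-1 alone, and in 2427 (19.3%) all 3 lay below. The changes were small. Of the 3641 changed genes, 94.0% changed less than 1.5-fold on the FPKM + 1 scale, which understates the change of low genes. The median rise was 1.286-fold and the median fall 1.111-fold. A rise of 1.5-fold or more was called in 174 protein-coding genes, and a fall of that size in 1, the histone gene HIST1H2AI, which was chosen after its values were seen. So were the genes named below beyond the largest changes, the fibroblast lists and the 4 leading members of each other list, and the families drawn from within lists. The number of falls rested on several libraries. It was 485 without BON-1 alone replicate 2, 504 without co-culture 10:2 replicate 3, 505 and 556 without BON-1 alone replicates 3 and 1, and 649 without co-culture 10:2 replicate 1, but 955 without co-culture 10:2 replicate 2. Below, a range given for the rises or falls of a list spans the 6 fits that each leave out 1 library. Shares of a list stand beside its counts, with the 20.8% and 8.15% of all genes that rose and fell as a common reference. Calls depended strongly on GC content and level, as given next, so a share above this reference is not by itself an excess.

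The size and sign of a gene's difference followed the base composition of its transcript. Across the 11883 genes with a known GC content, the log2 difference fell as GC rose, with a Spearman rho of -0.683, given as a description across genes of the same 6 libraries. Genes were split into 5 classes of equal size. In the class lowest in GC (25.0% to 41.8%), 61.3% rose and 0.168% fell. In the class highest in GC (59.0% to 87.9%), 0.463% rose and 19.3% fell. Longer genes rose more often too: 37.1% of the longest class rose against 5.99% of the shortest. The difference also went with mean FPKM, with a Spearman rho of -0.314. In the class highest in mean FPKM 11.8% rose and 24.5% fell, and in the lowest 21.6% rose and 0.873% fell. The dependence of level on GC differed between the groups in every library. Relative to the average of all 12 libraries, log2 levels climbed by 0.151, 0.159 and 0.153 per 10 points of GC in BON-1 alone, and changed by -0.00894, 0.0291 and -0.0301 at 10:2.

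Smooth trends on GC and length were removed from each library in a second fit of the same test. There 735 genes rose (6.19% of 11883) and 683 fell (5.75%), so that rises made up 51.83% of the changed genes in place of 71.79%. With quantile normalization that share was 60.86%, and of the genes changed among those averaging 5 FPKM or more it was 58.27%. Of the 2568 rises with a GC value, 686 (26.7%) also rose with the trends removed, and 15 were called as falls. Of the 1005 falls with a GC value, 180 (17.9%) also fell and 0 were called as rises. A difference in RNA or library handling that tracks the groups and a biological change that tracks GC cannot be told apart by this design. Values with the trends removed are therefore given beside most groups of genes below. The shares of all genes to read them against are 6.19% and 5.75%. Calls in that fit still went with GC, in both directions. Rises were 11.6% of the class lowest in GC, 12.1% of the next lowest and 1.09% of the highest. Falls were 9.42% of the lowest class and 1.47% of the highest. For lists low in GC, such as those of mitosis and repair, 6.19% and 5.75% are thus low marks, and an excess over them is overstated. Falls in that fit also went with mean FPKM. They were 2.07% of the class lowest in mean FPKM, 8.53% of the second highest and a larger share of the highest. For lists of highly expressed genes, such as those of ribosomal proteins and oxidative phosphorylation, 5.75% is thus a low mark by level.

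**Figure D1:**
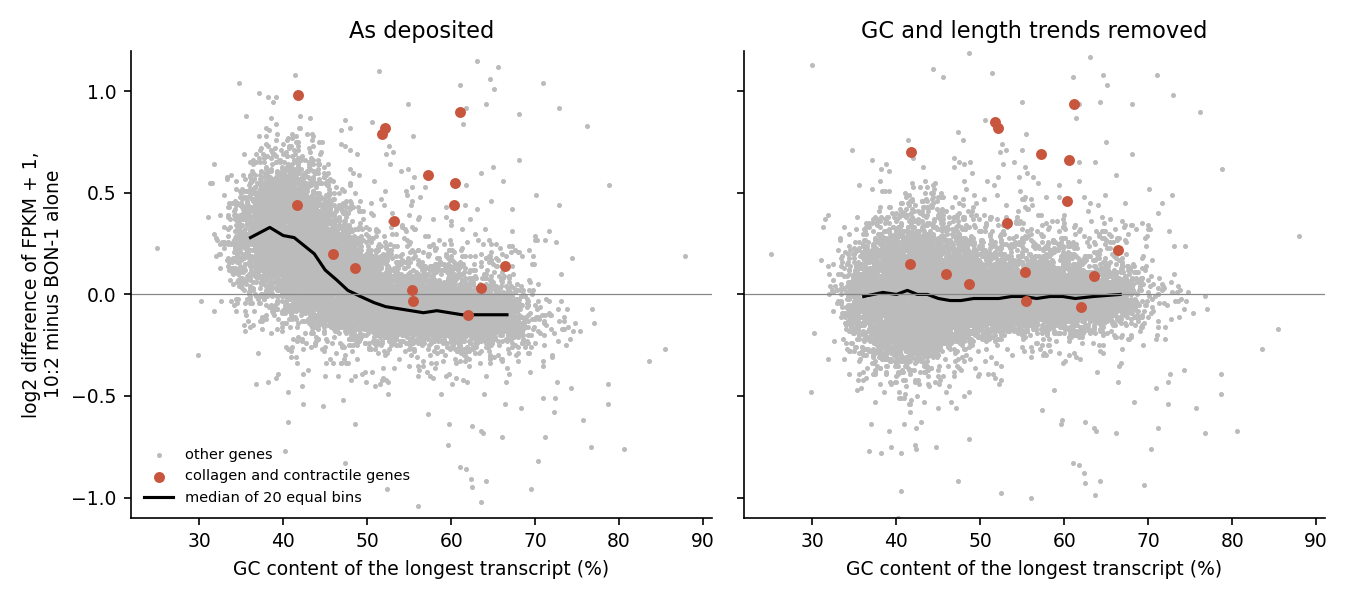
Log2 difference of FPKM + 1 (10:2 minus BON-1 alone) against the GC content of the longest transcript, as deposited (left) and with GC and length trends removed (right). Grey points are genes, red points collagen and contractile genes of the fibroblast lists, and the black line is the median of 20 equal bins; 21 and 18 genes lie beyond the axis. The black line slopes down on the left and is flat on the right, while most red points stay above 0 in both.

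COL1A2 and COL1A1 had the largest rises of protein-coding genes with a mean of at least 5 FPKM and no overlap. The fibroblast lists held 62 genes, of which 38 reached the FPKM limit and 24 did not. Of the 38, 17 rose and 2 fell, where 20.8% and 8.15% of all tested genes did, and 12 rose and 0 fell once the trends were removed, against 6.19% and 5.75%. Of the fibroblast lists, COL5A1 and FSTL1 passed the limit through the co-culture libraries alone, so they had to differ. Both are counted in the 17, and COL5A1 also in the 12. Members of other lists can have passed in the same way. Fewer cells of a type and less RNA per cell cannot be told apart in sorted bulk RNA. What CAFs kept by the sort added to these levels was not tested.

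COL1A1, a chain of type I collagen on chromosome 17 (50184101 to 50201631), stood at 9.30, 9.05 and 9.31 FPKM in the libraries of BON-1 alone and at 17.9, 18.4 and 17.9 FPKM at 10:2. The groups did not overlap, and the co-culture libraries differed from each other by less than 1 FPKM. The log2 difference was 0.90 ± 0.0344 (SE, limma adjusted p = 8.61e-08), and 0.94 with the trends removed. COL1A2, the partner chain, went from 4.46, 3.46 and 4.31 to 9.08, 9.40 and 8.54 FPKM, again without overlap (log2 difference 0.98, or 0.70 with the trends removed). COL3A1, the chain of type III collagen found beside type I in stroma, stood at 1.47, 1.60 and 1.69 FPKM alone and at 3.21, 3.54 and 3.93 FPKM at 10:2. COL5A1 and COL6A3 also rose, by 0.44 and 0.36, and all 5 collagens that rose did so with the trends removed as well. Their GC content ran from 41.7% to 61.1%.

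Not every collagen moved. COL6A1 was at 22.4 ± 0.843 FPKM alone and 22.8 ± 0.237 FPKM at 10:2 (mean ± SD, n = 3), and its libraries overlapped. COL4A1 and COL4A2, the basement membrane chains, had log2 differences of -0.03 and -0.10 that missed the threshold (adjusted p = 0.68 and 0.222). COL6A2 had a difference of 0.14 (adjusted p = 0.2). These 4 genes were already as high as or higher than most of the collagens that rose, at 5.05 to 43.6 FPKM in BON-1 alone. The summed FPKM of the 12 collagens was 95.4 to 97.7 alone and 108 to 114 at 10:2.

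Among 26 matrix and secreted genes, 18 were tested, 7 rose (38.9%) and 2 fell (11.1%). SPARC, a collagen-binding glycoprotein, went from 4.69, 5.58 and 4.87 FPKM to 10.0, 10.0 and 9.88 FPKM (log2 difference 0.86, or 0.80 with the trends removed). IGFBP7, a secreted binding protein of growth factors, went from 2.64, 2.91 and 3.09 FPKM to 5.52, 3.60 and 4.56 FPKM. These are the 2 matrix genes of the 7 that also rose with the trends removed. THBS1, FN1, P4HA1, PLOD2 and FSTL1 rose as deposited, by 0.20 to 0.52, but missed the threshold with the trends removed. FN1, fibronectin, then had a difference of -0.09. P4HB and PLOD1, enzymes of collagen folding and crosslinking that most secretory cells make, fell by 0.11 and 0.10 on the log2 scale. PLOD1 lost its call without BON-1 alone replicate 2 or 3 and without any 1 of the co-culture 10:2 libraries.

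MMP2, TIMP1, TIMP3, SERPINF1, CTHRC1, IGFBP5 and P4HA2 had overlapping groups and adjusted p-values of 0.178 to 0.645. BGN, biglycan, and SERPINH1, a collagen chaperone, were lower in all 3 co-culture libraries but missed the threshold. The summed FPKM of the matrix list was 1165 to 1187 alone and 1136 to 1151 at 10:2. The summed list thus stood lower at 10:2, while SPARC was 1.98 times as high. P4HB had the largest part in that sum, with means of 481 FPKM alone and 446 FPKM at 10:2. Its difference was -0.02 with the trends removed.

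Of 10 contractile genes 7 were tested, of which 5 rose (71.4%, against 20.8% of all genes) and 0 fell, while TPM2 and MYLK missed the threshold (adjusted p = 0.695 and 0.251). ACTA2, the smooth muscle actin of activated fibroblasts, went from 6.49, 5.44 and 6.05 FPKM to 10.6, 11.6 and 11 FPKM. The difference was 0.79 ± 0.0537 (SE, limma adjusted p = 2.35e-06), and 0.85 with the trends removed. TAGLN, an actin-bundling protein, rose from 6.12 ± 0.622 to 9.71 ± 0.569 FPKM. The myosin light chain gene MYL9 rose from 1.75 ± 0.0856 to 3.03 ± 0.275 FPKM. CALD1 and TPM1 rose by 0.44 and 0.20. With the trends removed CALD1 missed the threshold at 0.15, while TPM2, a tropomyosin, passed it at 0.11. The summed FPKM of the contractile list was 194 to 199 alone and 217 to 224 at 10:2.

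None of the 4 tested surface genes passed the threshold. PDGFRA, a receptor for platelet-derived growth factor, was higher in all 3 co-culture libraries (2.91, 3.00 and 2.82 FPKM against 2.55, 2.28 and 2.51) with adjusted p = 0.0945. NT5E, CAV1 and PTRF overlapped between the groups.

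Of the 24 fibroblast genes below the limit, 13 had all co-culture libraries above all of BON-1 alone, and 0 had them below. Over the 15536 genes of the table below the limit and above 0 in at least 1 of the 6 libraries, those shares were 7.13% and 2.63%, in a set that also holds genes at 0 in some libraries. Among tested genes they were 26.9% and 19.3%. POSTN, periostin, stood at 0.0353, 0.0811 and 0.0687 FPKM alone and at 0.404, 0.306 and 0.201 FPKM at 10:2, from 11 and 39 reads in all. PDGFRB, the pericyte and fibroblast receptor, went from 0.180 to 0.420 FPKM, LUM, lumican, from 0.126 to 0.308, THBS2 from 0.221 to 0.515, and COL5A2 from 0.328 to 0.721. FAP, the serine protease used to mark CAFs, was near 0 in both groups, with 3 reads alone and 5 at 10:2. DCN, decorin, had 6 and 7 reads and was at 0 in 1 co-culture library. CD44 was not higher at 10:2 (0.573 against 0.601 FPKM). These genes had no test.

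At the larger CAF shares, which were compared with the same 3 libraries of BON-1 alone, COL1A1 stood at 37.4 ± 1.31 FPKM (10:4) and 54.4 ± 0.794 FPKM (10:6), and ACTA2 at 27.6 and 38.5 FPKM. COL6A1, which did not pass the threshold at 10:2, stood at 22.9 and 24.0 FPKM there, against 22.4 FPKM alone. COL6A2, which did not pass it either, stood at 8.23 and 9.9 FPKM, against 5.05 FPKM alone.

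**Figure D2:**
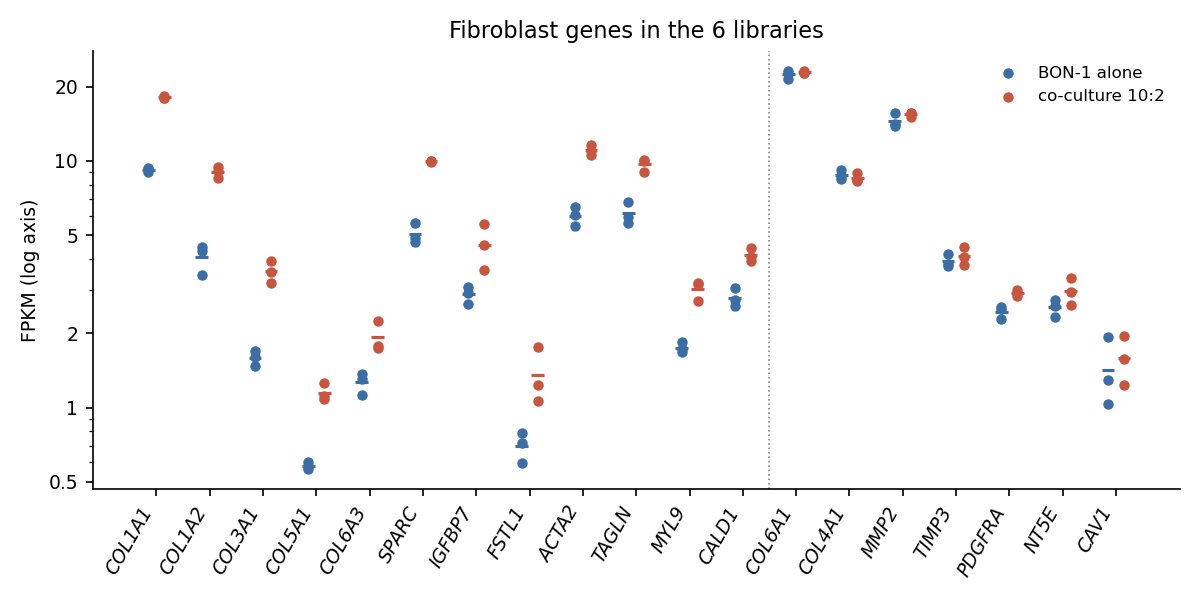
FPKM (log axis) of 19 fibroblast genes in the 3 libraries of BON-1 alone (blue) and the 3 of co-culture 10:2 (red), with bars at the group means. The 12 genes left of the dotted line rose, with no overlap between groups. Of these, COL5A1 and FSTL1 passed the FPKM limit through the co-culture libraries alone. The 7 genes right of the line did not pass the threshold.

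Markers of other cell types stayed near their level in BON-1 alone. The summed FPKM of 13 leukocyte genes was 9.15 to 10.7 alone and 8.61 to 11.2 at 10:2, with CD3E at 0 throughout and PTPRC at 0 in all 3 libraries at 10:2. The 10 endothelial genes summed to 53.4 to 54.4 FPKM alone and 53 to 56.7 FPKM at 10:2. KDR, a vascular growth factor receptor that BON-1 expresses on its own (10.9 FPKM), rose by 0.17 with adjusted p = 0.0493, and lost that call whichever library was left out.

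The neuroendocrine granule genes split into both directions. SCG2, secretogranin II, stood at 743, 753 and 744 FPKM in BON-1 alone and at 1149, 1097 and 1164 FPKM at 10:2. No library overlapped, and the ratio of means was 1.52 (log2 difference 0.61 ± 0.03 SE, limma adjusted p = 4.06e-07; 0.41 with the trends removed). CHGB, chromogranin B, went from 217, 222 and 217 FPKM to 254, 257 and 258 FPKM, and its difference was 0.23 as deposited and 0.29 with the trends removed. CHGA, chromogranin A, moved the other way, from 1344, 1374 and 1322 FPKM to 1159, 1175 and 1128 FPKM. Its fall was 0.22 on the log2 scale as deposited and its difference -0.12 with the trends removed (adjusted p = 0.00317).

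SCG3, a granin that binds CHGA in granule membranes, rose by 0.25. VGF, a precursor of several peptides, and PCSK1N, an inhibitor of prohormone convertase 1, fell by 0.19 and 0.18. SCG3, VGF and PCSK1N missed the threshold with the trends removed. SCG3 also lost its call without replicate 3 of either group, and PCSK1N without BON-1 alone replicate 2 or co-culture 10:2 replicate 3. All 6 tested granule genes changed as deposited, 3 in each direction, and the 3 that rose had a median GC of 43.0% against 70.6% for the 3 that fell.

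Among enzymes that process prohormones, 5 of 7 tested rose (71.4%) and 0 fell. CPD, a carboxypeptidase of the trans-Golgi network, went from 5.40, 5.62 and 5.44 FPKM to 9.97, 9.27 and 9.88 FPKM, a rise of 0.72, and was the one enzyme that also rose with the trends removed (0.39). PCSK1, prohormone convertase 1, rose from 14.7 ± 0.617 to 17.7 ± 0.642 FPKM, QPCT, which caps peptides with pyroglutamate, from 17.2 ± 0.724 to 21 ± 1.05 FPKM, and CPE, carboxypeptidase E, from 123 ± 1.63 to 131 ± 4.97 FPKM. CPE lost its call without any 1 library other than co-culture 10:2 replicate 3. PAM, the enzyme that amidates peptide ends, rose from 75.0 ± 1.62 to 86.3 ± 1.44 FPKM, and its difference was -0.06 with the trends removed.

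**Figure D3:**
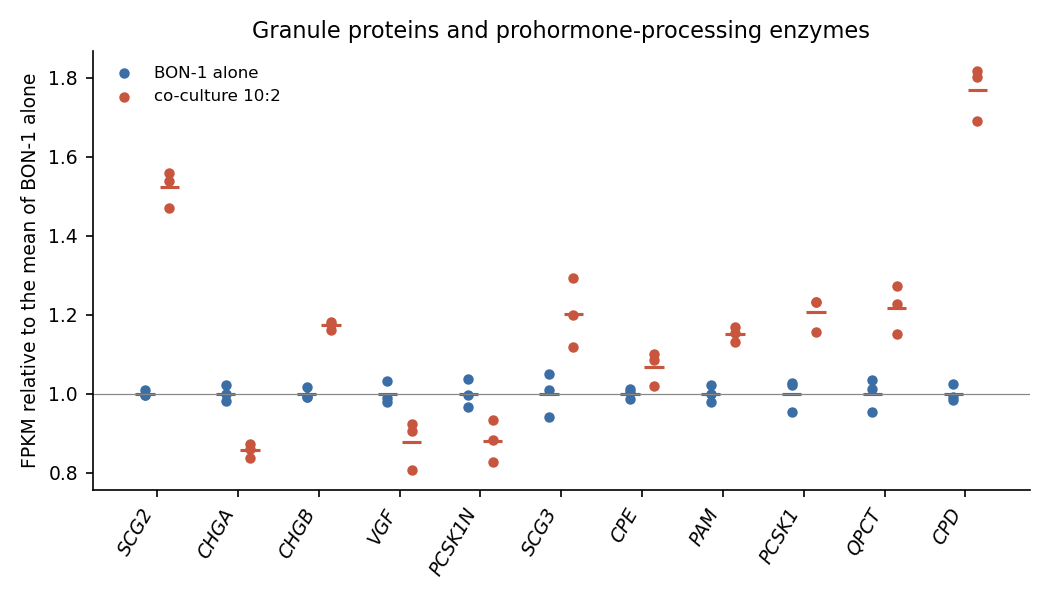
FPKM of 11 granule and processing genes in each library divided by the mean of the 3 libraries of BON-1 alone (blue, BON-1 alone; red, co-culture 10:2; bars are means). SCG2 and CPD lie highest, at 1.52 and 1.77, CHGB at 1.17, and CHGA at 0.857.

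The 3 protein-coding genes that rose at least 2-fold on the FPKM + 1 scale were subunits of the glycoprotein hormones. CGA, the alpha subunit they share, stood at 15.2, 83.8 and 28.7 FPKM in BON-1 alone and at 65.5, 103 and 160 FPKM at 10:2. The groups overlapped, with BON-1 alone replicate 2 above co-culture replicate 1, and adjusted p was 0.0498. CGB8 and CGB3, beta subunit genes of chorionic gonadotropin, went from 2.87 ± 2.61 to 7.66 ± 1.80 FPKM and from 2.27 ± 1.91 to 5.50 ± 1.2 FPKM, and BON-1 alone replicate 2 was the highest library of its group in both. The beta subunit genes are near-identical copies, so reads may have been split between them. All 3 calls were lost without BON-1 alone replicate 1 or 3, and without co-culture 10:2 replicate 2 or 3. Of the other secreted peptides tested, KISS1 fell by 0.32, and 9 missed the threshold. KISS1 lost its call without BON-1 alone replicate 1 and without co-culture 10:2 replicate 1 or 2.

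In serotonin handling, MAOA, which breaks serotonin down, rose from 7.41 ± 0.369 to 8.97 ± 0.401 FPKM and did so with the trends removed. QDPR, which recycles the cofactor of serotonin synthesis, fell from 28.0 ± 1.21 to 24.4 ± 0.387 FPKM. DDC, the decarboxylase, and SLC18A1, the vesicular transporter, missed the threshold, at 36.4 and 33.3 FPKM and at 3.16 and 3.13 FPKM. TPH1, also of serotonin synthesis, was below the FPKM limit and not tested, at 0.0368 and 0.055 FPKM.

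Of 23 regulated exocytosis genes, 6 rose and 5 fell (26.1% and 21.7%, against 20.8% and 8.15% of all genes), and 1 rose and 1 fell with the trends removed. RAB3B, a small GTPase of secretory vesicles, rose by 0.33, or 0.12 with the trends removed. SYT1, a calcium sensor, and RIMS2, a scaffold of the release site, rose by 0.37 and 0.41 but missed the threshold with the trends removed. SYT7, a further calcium sensor, fell from 24.0, 24.2 and 23.3 FPKM to 20.4, 20.8 and 21.1 FPKM and kept the call with the trends removed. The other falls, CPLX2, SYP, DNAJC5 and SV2A, were 0.11 to 0.18 in size. With 1 library left out the rises numbered 3 to 5 and the falls 0 to 5, both lowest without BON-1 alone replicate 1. SYT7 itself lost its call without BON-1 alone replicate 1 or 2 and without co-culture 10:2 replicate 1.

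NEUROD1, a transcription factor of endocrine cells, stood at 31.2, 33.9 and 30.3 FPKM alone and at 40.5, 42.0 and 39.4 FPKM at 10:2, with no overlap. It was the one factor of 24 tested that rose under both fits (0.35 and 0.23). The other 5 factors that rose, PROX1 (0.40) the most, did so as deposited alone. GATA4, a factor of foregut endoderm, fell from 7.40 ± 0.27 to 6.06 ± 0.024 FPKM under both fits, and INSM1 and ONECUT3 fell as deposited. INSM1 lost its call without BON-1 alone replicate 1 or 2, and ONECUT3 without any 1 library of BON-1 alone or co-culture 10:2 replicate 3. PDX1, NKX2-2 and FOXA2 were among the 15 that did not pass the threshold. With 1 library left out the rises of the list numbered 3 to 5 and the falls 1 to 4, both lowest without BON-1 alone replicate 1. Of 24 genes mutated in pancreatic neuroendocrine tumours or linked to them, 8 rose (33.3%), among them the histone demethylase gene KDM6A (1.70 ± 0.0442 to 2.84 ± 0.216 FPKM) and RB1, SETD2 and ARID2. KDM6A was the one that rose with the trends removed. MEN1 and DAXX, the 2 genes most tied to this tumour type, missed the threshold (adjusted p = 0.151 and 0.135).

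Epithelial genes were called in both directions. Of 41 tested, 9 rose and 10 fell (22% and 24.4%, against 20.8% and 8.15% of all genes), and 5 rose and 1 fell once the trends were removed. DSP, desmoplakin, went from 16.2, 16 and 16.2 FPKM to 24.5, 23.6 and 23.8 FPKM (0.54, or 0.44 with the trends removed), and DSG2, a desmosomal cadherin, from 6.76, 6.43 and 7.15 FPKM to 10.5, 10.2 and 10.7 FPKM. TJP1, a scaffold of tight junctions, CLDN12 and EPCAM rose under both fits as well. Other junction genes fell as deposited: of 7 desmosome genes DSG2 and DSP rose and EVPL and PKP3 fell, and of 5 claudins CLDN12 rose and CLDN4 and CLDN7 fell. These 4 falls were 0.12 to 0.17 in size, and none of the 4 passed the threshold with the trends removed. EVPL lost its call without any 1 library other than co-culture 10:2 replicate 1, PKP3 without BON-1 alone replicate 3 or co-culture 10:2 replicate 1, and CLDN7 without BON-1 alone replicate 2. The simple keratins KRT18, KRT19 and KRT7 fell by 0.10 to 0.13, from means of 1513, 841 and 324 FPKM to 1407, 769 and 300 FPKM. None of these 3 fell with the trends removed, where their differences were -0.02 to 0. KRT18 and KRT7 lost their calls without any 1 library of BON-1 alone. The falls of the list numbered 4 to 9, lowest without BON-1 alone replicate 1. CDH1, E-cadherin, was at 79.8 ± 1.61 and 78.4 ± 1.36 FPKM, and VIM, vimentin, at 76.4 ± 1.17 and 76.1 ± 0.878 FPKM, both overlapping.

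Of 10 tested genes of mesenchymal transition, ITGB1 and ITGAV rose and FGFR1 fell. ITGB1, the integrin beta chain shared by collagen and fibronectin receptors, went from 45.7, 43.4 and 47.6 FPKM to 71.5, 67.9 and 69.9 FPKM, 1.53 times the level alone. It rose by 0.60, or 0.31 with the trends removed. FGFR1 fell from 33.1 ± 0.832 to 28.7 ± 0.906 FPKM, with a difference of -0.20 as deposited and -0.21 with the trends removed.

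Receptors for fibroblast-derived factors were mixed. Of 35 growth factor receptors tested, 8 rose (22.9%) and 6 fell (17.1%). MET, the receptor of hepatocyte growth factor, stood at 3.50, 3.16 and 3.59 FPKM alone and at 6.10, 5.38 and 5.47 FPKM at 10:2. The groups did not overlap, and MET and TGFBR3, a co-receptor for TGF-beta, were the 2 that rose under both fits. NRP1 (0.27) and BMPR1A (0.49) led the 6 that rose as deposited and missed the threshold with the trends removed. EGFR, IGF1R, RET and the somatostatin receptors SSTR1 and SSTR2 did not pass the threshold, and SSTR5 fell by 0.17. SSTR5 lost its call without BON-1 alone replicate 2 or co-culture 10:2 replicate 1. Without 1 library the rises numbered 4 to 7 and the falls 2 to 6, the falls lowest without BON-1 alone replicate 2.

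Of 25 ligands, 2 rose (8.0%) and 3 fell (12%), and the rises numbered 1 to 3 with 1 library left out, lowest without replicate 3 of either group. EREG, epiregulin, went from 2.81 ± 0.587 to 4.67 ± 0.449 FPKM as deposited. GDF15 fell from 483 ± 6.21 to 433 ± 10.1 FPKM, and BMP7 from 97.9 ± 1.82 to 88.8 ± 2.90 FPKM, BMP7 under both fits.

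Lists for pathways that CAF-derived signals use lay on both sides of the 20.8% of all genes that rose and the 8.15% that fell. They hold ligands, receptors and other components beside targets, among them JAK1, TEAD1 and LTBR, so their shares do not measure pathway output. Of 21 TGF-beta response genes, 2 rose (9.52%) and 3 fell (14.3%). SKIL, 1 of the 2 that rose, stood at 0.688, 0.928 and 0.988 FPKM alone and at 1.38, 1.23 and 1.38 FPKM at 10:2. It passed the FPKM limit through the co-culture libraries alone, so it had to be higher there. The rises numbered 0 to 1 whichever library was left out. ID3, a transcription regulator induced by BMP signals, fell from 295, 314 and 311 FPKM to 266, 264 and 269 FPKM, and ID4 from 9.58 ± 0.371 to 7.88 ± 0.279 FPKM, both under both fits. CTGF, a well-known target, did not pass the threshold. Of 23 NF-kB and STAT3 response genes, 4 rose (17.4%) and 1 fell (4.35%), and MCL1, a survival factor of the BCL2 family, was the one that rose under both fits (41.3 ± 0.767 to 54.3 ± 2.14 FPKM). Of 23 interferon-stimulated genes, 4 rose and 1 fell, the same shares. The falls of both lists numbered 0 to 2 with 1 library left out, lowest without BON-1 alone replicate 2 in each. Of 35 WNT, NOTCH and hedgehog genes, 4 rose (11.4%) and 8 fell (22.9%), and 1 rose and 4 fell with the trends removed. The falls numbered 4 to 7, lowest without BON-1 alone replicate 3. WNT7B, a WNT ligand, fell from 15.6, 15.4 and 16.1 FPKM to 12.6, 13.3 and 12.9 FPKM, and DLL1, a NOTCH ligand, from 15.1 ± 0.418 to 12.8 ± 0.615 FPKM, both under both fits. FZD6, a WNT receptor, rose from 3.75 ± 0.175 to 5.87 ± 0.267 FPKM under both. Of 25 genes listed for YAP and TEAD, 6 rose (24.0%) and 2 fell (8.0%), with MYOF rising under both fits. The falls numbered 0 to 2, lowest without BON-1 alone replicate 2.

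Immediate early genes are switched on within minutes by growth factors, stress or the handling of cells. Of 35 tested, 3 rose (8.57%) and 11 fell (31.4%), with a median of -0.09 against -0.003 over all genes. With any 1 library left out the falls numbered 5 to 11, lowest without co-culture 10:2 replicate 3, and 7 without BON-1 alone replicate 2 or 3. With the trends removed 1 rose and 3 fell, and the median was -0.03. Promoters of the 2 genes below are shown because their motifs belong to the 2 best known routes to these genes. They run up to the transcription start, from RefSeq on GRCh38.p14, 5′ to 3′ on the gene's strand, with capitals for the CArG box (bound by SRF) in EGR1 at chr5:138465229-138465478 (plus strand) and for the CRE, TGACGTCA (bound by CREB and ATF proteins), in DUSP1 at chr5:172771196-172771445 (minus strand).
EGR1: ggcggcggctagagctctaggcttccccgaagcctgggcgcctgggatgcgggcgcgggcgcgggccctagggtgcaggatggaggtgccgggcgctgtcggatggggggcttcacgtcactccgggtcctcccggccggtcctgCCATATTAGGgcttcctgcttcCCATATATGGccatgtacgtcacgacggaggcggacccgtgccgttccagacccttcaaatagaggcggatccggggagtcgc
DUSP1: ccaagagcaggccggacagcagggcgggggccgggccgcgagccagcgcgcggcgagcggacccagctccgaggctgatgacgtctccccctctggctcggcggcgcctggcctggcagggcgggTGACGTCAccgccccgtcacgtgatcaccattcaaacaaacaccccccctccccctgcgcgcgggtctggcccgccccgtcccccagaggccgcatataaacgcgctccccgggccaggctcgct

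EGR1, a zinc finger transcription factor, stood at 92.6, 88.3 and 92.3 FPKM alone and at 81.8, 77.8 and 71.6 FPKM at 10:2. The groups did not overlap. Its difference was -0.24 as deposited (limma adjusted p = 0.00207) and -0.17 with the trends removed (adjusted p = 0.0212). DUSP1, a phosphatase of MAP kinases, went from 56.9, 61.6 and 61.2 FPKM to 52.9, 54.9 and 51.5 FPKM and missed the threshold with the trends removed. NR4A1, an orphan nuclear receptor, stood at 6.25, 7.53 and 6.61 FPKM alone and at 5.04, 4.73 and 4.99 FPKM at 10:2, and fell under both fits. FOS fell from 226, 218 and 223 FPKM to 202, 207 and 205 FPKM, and JUN from 67.8 ± 0.408 to 60.8 ± 3.57 FPKM, as deposited alone. JUN lost its call without BON-1 alone replicate 1 or co-culture 10:2 replicate 3. KLF6, KLF10 and DUSP6 rose as deposited alone.

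Searched on both strands, the CArG box was in the promoters of 2 of 24 immediate early genes with a RefSeq promoter, EGR1 and SRF, and in 0.945% of the promoters of 8782 tested genes. The CRE was in 3 of the 24, DUSP1, JUND and PPP1R15A, and in 3.02% of the promoters of tested genes. The windows searched for NR4A1 and IER2, which also fell as deposited, held neither motif. Only 1 window was searched for each gene. That of NR4A1 ended at position 52022831 of chromosome 12, at the outer end of a gene that runs to 52059503. Other starts of these genes were not searched. A match describes the letters of this window and says nothing of what bound there.

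Of 68 tested genes of mitosis, 39 rose (57.4%, against 20.8% of all genes) and 5 fell, with a median of 0.21. With the trends removed 14 rose and 3 fell (20.6% and 4.41%, against 6.19% and 5.75% of all genes) and the median was 0.05. The 39 that rose had a median GC of 40.2%, and the 5 that fell, PLK1, MYBL2, FOXM1, BIRC5 and CDC25B, 57.1%. Leaving out 1 library, the falls numbered 1 to 3, lowest without BON-1 alone replicate 1, and each of the 5 lost its call in at least 2 of the 6 fits. Many promoters of such genes carry the CHR element, TTTGAA, bound by the DREAM and MuvB complexes, and CCAAT boxes, bound by NF-Y. Both are in capitals in TOP2A at chr17:40417897-40418146 (minus strand), which also shows their reverse complements, and the CHR in BUB1B at chr15:40160819-40161068 (plus strand). The 2 are shown because the genes rose with and without the trends, carry the CHR and differ in their CCAAT boxes.
TOP2A: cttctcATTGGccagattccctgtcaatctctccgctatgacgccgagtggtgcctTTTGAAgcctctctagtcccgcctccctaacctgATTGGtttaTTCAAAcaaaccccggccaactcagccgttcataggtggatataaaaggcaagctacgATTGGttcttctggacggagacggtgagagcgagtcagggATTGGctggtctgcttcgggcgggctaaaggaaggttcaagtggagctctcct
BUB1B: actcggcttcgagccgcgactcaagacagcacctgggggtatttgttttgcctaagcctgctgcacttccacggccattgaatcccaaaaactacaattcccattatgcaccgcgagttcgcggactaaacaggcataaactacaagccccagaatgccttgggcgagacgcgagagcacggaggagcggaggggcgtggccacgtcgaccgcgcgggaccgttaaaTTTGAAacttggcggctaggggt

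The CHR was in 29 of 58 mitotic promoters against 7.71% of those of tested genes, and CCAAT in 41 (70.7%) against 35.1%. The promoter of BUB1, a gene that also rose under both fits, held 0 CHR and 2 CCAAT matches. The AP-1 motif TGACTCA was in 0 of the 58 against 2.54% of the promoters of tested genes, and the C/EBP-ATF motif TGATGCAA in 0 against 0.387%. At shares this low, 58 promoters are too few to read anything from a 0.

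TOP2A, which untangles DNA before chromosomes part, stood at 6.87, 6.48 and 7.39 FPKM alone and at 13.4, 12.2 and 13.7 FPKM at 10:2. BUB1B, a kinase-like protein of the spindle checkpoint, went from 12.3 ± 1.19 to 19.6 ± 0.435 FPKM, and its partner BUB1 from 16, 16.3 and 17.0 FPKM to 26.7, 24.0 and 25.7 FPKM. None of the 3 had overlapping groups, and with the trends removed they kept differences of 0.51, 0.43 and 0.36. Of 12 condensin and cohesin subunits, which shape and hold chromosomes, 9 rose and 0 fell, and 4 rose with the trends removed (NCAPG, RAD21, SMC3 and STAG2). MKI67, the proliferation marker, rose from 10.1 ± 0.685 to 13.9 ± 0.914 FPKM under both fits, while PLK1, the polo-like kinase of mitotic entry, fell by 0.11 as deposited alone. PLK1 lost its call without BON-1 alone replicate 1 or co-culture 10:2 replicate 3.

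In DNA replication and nucleotide supply, 21 of 66 rose (31.8%) and 6 fell (9.09%), and 5 rose and 4 fell with the trends removed. RRM1, the large subunit of ribonucleotide reductase, went from 31.8, 31.8 and 32.3 FPKM to 48.5, 47.1 and 48.3 FPKM (0.57, or 0.38 with the trends removed). Of the 6 subunits of the MCM2 to MCM7 helicase, MCM6 rose, as deposited alone, and MCM7 fell, under both fits (195 ± 4.27 to 176 ± 1.95 FPKM). PCNA, the sliding clamp, rose from 190.0 ± 1.62 to 215 ± 4.25 FPKM under both fits.

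Of 42 repair and checkpoint genes, 20 rose (47.6%, against 20.8% of all genes) and 1 fell (2.38%, against 8.15%), and 7 rose (16.7%, against 6.19%) and 0 fell once the trends were removed. The fall was that of FANCG, whose call was lost without BON-1 alone replicate 1 or co-culture 10:2 replicate 2. FANCI, of the Fanconi anaemia complex, went from 10.3, 11.1 and 10.1 FPKM to 19, 17.7 and 19.9 FPKM and rose by 0.79 (0.56 with the trends removed). TOPBP1, which activates the ATR kinase, stood at 3.20, 3.23 and 3.44 FPKM alone and at 6.37, 6.41 and 6.48 FPKM at 10:2. XRCC5 and PRKDC, of the end-joining machinery, and MSH6, of mismatch repair, rose under both fits.

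Of 29 p53 targets, 8 rose and 5 fell (27.6% and 17.2%, against 20.8% and 8.15% of all genes), and 3 rose and 0 fell with the trends removed. With 1 library left out the rises numbered 3 to 9 and the falls 2 to 5, both lowest without BON-1 alone replicate 2. MDM2, which marks p53 for degradation, went from 2.39 ± 0.191 to 4.01 ± 0.184 FPKM, and PLK2 from 85.3 ± 1.54 to 110.0 ± 2.81 FPKM, both under both fits. CDKN1A, the cell cycle inhibitor p21, was at 41.1 ± 1.48 and 40.3 ± 0.347 FPKM with overlapping groups. BAX, which opens mitochondria in apoptosis, fell as deposited alone.

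The enzymes that charge tRNAs in the cytosol moved in both directions. Of 23 tested with their cofactors, 10 rose (43.5%), 5 fell (21.7%) and 8 did not pass the threshold. EPRS, which charges glutamate and proline tRNAs, went from 10.4, 10.2 and 9.91 FPKM to 18.6, 19.5 and 20.2 FPKM. RARS, LARS, NARS and TARS, for arginine, leucine, asparagine and threonine, rose by 0.69, 0.65, 0.64 and 0.64, and IARS, DARS and FARSB by 0.50, 0.54 and 0.43. These 8 all rose with the trends removed, by 0.16 to 0.63. EPRS, LARS, IARS, RARS and DARS sit together in the multi-synthetase complex of the cell, whose other members did not all follow. AIMP2, a scaffold of that complex, fell by 0.21, or 0.15 with the trends removed, and MARS fell by 0.08 as deposited alone. VARS fell under both fits, and YARS and AARS as deposited alone. The falls numbered 1 to 6, lowest without BON-1 alone replicate 1. AIMP2 kept its call in all 6 of those fits, while MARS, VARS, YARS and AARS lost theirs in 4 or 5. QARS and KARS, also of the complex, did not pass the threshold. The 10 that rose had a median GC of 42.4% and the 5 that fell 53.8%.

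**Figure D4:**
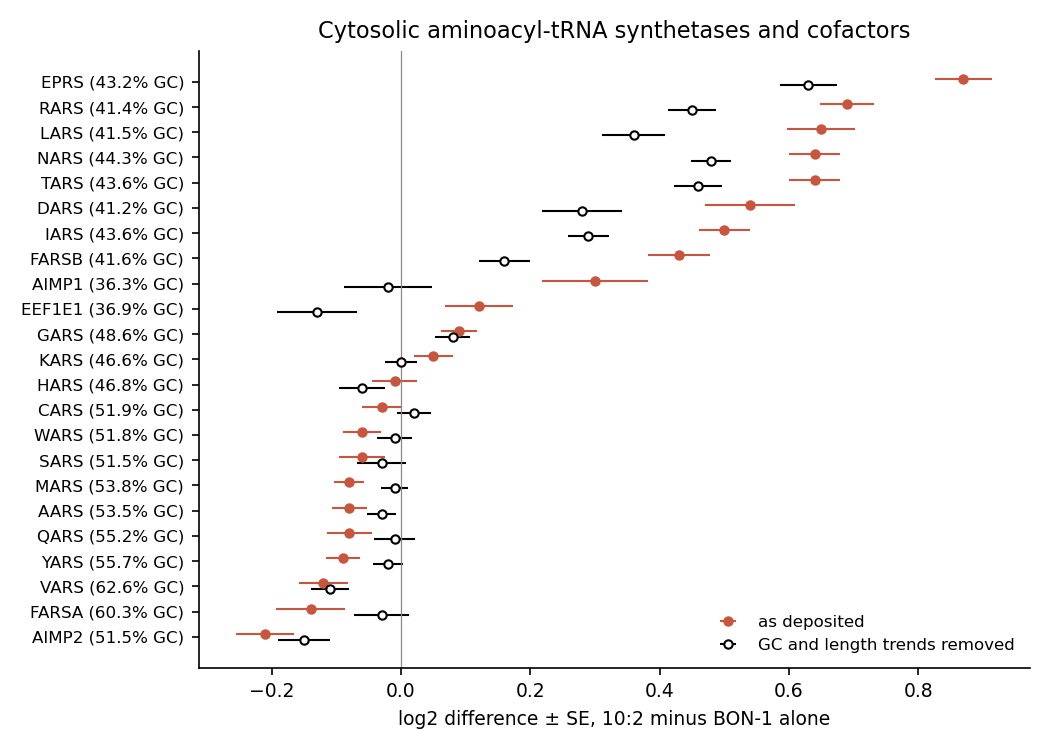
Log2 difference ± SE (10:2 minus BON-1 alone) of 23 cytosolic synthetases and cofactors, as deposited (red) and with GC and length trends removed (open), ordered by the deposited value with each transcript's GC content. The upper 8 genes lie above 0 in both fits and most of the others lie near 0 once the trends are removed.

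In mitochondria, 1 of 17 synthetases rose, IARS2 (16.2 ± 0.817 to 25.1 ± 0.939 FPKM), under both fits, and the rises numbered 1 to 3 with 1 library left out, highest without co-culture 10:2 replicate 2. Of 39 translation factors, 18 rose and 7 fell (46.2% and 17.9%, against 20.8% and 8.15% of all genes), and 11 rose and 4 fell with the trends removed (28.2% and 10.3%, against 6.19% and 5.75%). The falls numbered 3 to 6 with 1 library left out, lowest without BON-1 alone replicate 2. EIF3A, the largest subunit of eIF3, went from 17.0, 17.9 and 17.3 FPKM to 28.9, 29.3 and 28.3 FPKM. Of the 13 eIF3 subunits, EIF3A was the only one to rise under both fits, and EIF3B and EIF3D fell as deposited, with EIF3D keeping its call in 1 of the 6 fits that leave out a library. EIF4G2, EIF2S2 and EIF5B rose under both.

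Of 48 tested heat shock and chaperonin genes, 21 rose and 6 fell (43.8% and 12.5%), and 13 rose and 1 fell with the trends removed (27.1% and 2.08%, against 6.19% and 5.75% of all genes). The falls numbered 3 to 6, lowest without BON-1 alone replicate 2. CCT8, a subunit of the chaperonin that folds actin and tubulin, stood at 59.7, 58.8 and 59.7 FPKM alone and at 93.4, 92.1 and 95.7 FPKM at 10:2. The groups did not overlap (difference 0.65 ± 0.0286 SE, limma adjusted p = 1.76e-07, and 0.46 with the trends removed). Of the 8 subunits of this ring, which are built into it in equal number, 6 rose, CCT3 and CCT7 fell, and 5 rose and 0 fell once the trends were removed. CCT7 lost its call without any 1 library of BON-1 alone. HSPD1, the mitochondrial chaperonin, went from 264, 254 and 255 FPKM to 395, 389 and 403 FPKM, and HSP90AA1, the inducible form of HSP90, from 179, 168 and 172 FPKM to 257, 241 and 260 FPKM. HSPA8, the constitutive HSP70, was at 747 ± 8.9 and 759 ± 7.31 FPKM and did not pass the threshold.

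Of 37 genes of the unfolded protein response and translocation into the endoplasmic reticulum, 17 rose and 3 fell (45.9% and 8.11%), and 5 rose and 3 fell with the trends removed (13.5% and 8.11%). The falls numbered 1 to 2 with 1 library left out, lowest without BON-1 alone replicate 1. HSP90B1, the HSP90 of that compartment, rose from 81.5 ± 1.3 to 117 ± 4.89 FPKM, and DNAJC3 from 2.86 ± 0.193 to 4.71 ± 0.429 FPKM, both under both fits. Of 33 genes listed for the ATF4 response, 8 rose (24.2%) and 10 fell (30.3%), and 2 rose and 1 fell with the trends removed. The list also holds genes that act upstream of ATF4, such as EIF2AK3, so its counts do not measure the response alone. SLC38A2, an amino acid transporter, and EIF2AK3, the stress kinase PERK, rose under both fits, and ATF4 fell from 513 ± 4.31 to 476 ± 14.4 FPKM as deposited alone. ATF4 lost its call without BON-1 alone replicate 1 or 2 or co-culture 10:2 replicate 3, and the falls of its list numbered 3 to 10. Of 38 proteasome genes, 16 rose and 3 fell (42.1% and 7.89%), and 4 rose and 4 fell with the trends removed (10.5% each). The falls as deposited numbered 1 to 3, lowest without BON-1 alone replicate 1. PSMD1, a scaffold of the regulatory particle, went from 44.1, 45.1 and 43.3 FPKM to 66.3, 67.8 and 68.5 FPKM, and PSME4, an activator, from 5.68 ± 0.248 to 10.2 ± 0.076 FPKM. Of the 16 subunits of the proteasome core, 6 rose and 1 fell as deposited, and 1 rose and 3 fell with the trends removed.

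Of 94 spliceosome genes, 43 rose and 7 fell (45.7% and 7.45%, against 20.8% and 8.15% of all genes), and 24 rose and 14 fell with the trends removed (25.5% and 14.9%, against 6.19% and 5.75%). SF3B1, which binds the branch point in U2 particles, stood at 18.7, 18.5 and 18.3 FPKM alone and at 33.0, 32.3 and 32.8 FPKM at 10:2 (0.79, or 0.50 with the trends removed). Its partners SF3B2 and SF3B3 fell under both fits. As deposited, however, SF3B3 lost its call whichever library was left out, and SF3B2 without BON-1 alone replicate 1 and without co-culture 10:2 replicate 1 or 3. Of 17 hnRNP genes, 10 rose and 0 fell, and 7 rose and 3 fell with the trends removed, and of 10 SR genes 7 rose and 0 fell, then 1 rose and 3 fell. DDX5, DHX9 and DHX15, RNA helicases, rose by 0.55, 0.55 and 0.59 and under both fits. As deposited the falls of the list numbered 0 to 3 with 1 library left out.

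Of 60 genes of the nuclear pore and nuclear transport, 31 rose and 5 fell (51.7% and 8.33%), and 19 rose and 7 fell with the trends removed (31.7% and 11.7%). RANBP2, of the cytoplasmic filaments of the pore, went from 4.50, 4.76 and 4.86 FPKM to 9.09, 8.67 and 8.84 FPKM. NUP160 and NUP133, of the pore's Y-shaped scaffold, rose from 6.84 ± 0.163 to 11.4 ± 0.0454 FPKM and from 6.71 ± 0.145 to 10.3 ± 0.513 FPKM. Of 22 importins and exportins, 14 rose and 1 fell, and 9 rose and 3 fell with the trends removed. NUP188 and NUP214 fell under both fits, but as deposited lost their calls in 4 and 5 of the 6 fits that leave out a library. The falls of this list numbered 1 to 3 with 1 library left out.

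Of 60 chromatin remodelling genes and coactivators, 32 rose and 2 fell (53.3% and 3.33%), and 10 rose and 2 fell with the trends removed (16.7% and 3.33%). The falls as deposited numbered 0 to 2, lowest without BON-1 alone replicate 1. WAPL, which releases cohesin, rose from 4.26 ± 0.502 to 7.10 ± 0.303 FPKM and CHD2, a remodelling helicase, from 5.77 ± 0.267 to 8.21 ± 0.152 FPKM. KMT2B fell under both fits, but as deposited lost its call without BON-1 alone replicate 1 or 3 and without co-culture 10:2 replicate 2 or 3. POLR2B, the second largest subunit of RNA polymerase II, went from 9.28, 9.17 and 8.71 FPKM to 18.5, 15.8 and 15.9 FPKM. Of 44 kinesin, dynein and dynactin genes, 15 rose (34.1%) and 3 fell (6.82%), and KIF5B, the heavy chain of conventional kinesin, went from 6.63 ± 0.255 to 11.9 ± 0.42 FPKM. Of 43 vesicle coat and Golgi genes, 19 rose (44.2%) and 4 fell (9.3%), and CLTC, the clathrin heavy chain, went from 17.9, 17.5 and 17.4 FPKM to 28.8, 28.2 and 28.9 FPKM. CLTC, COPB1 and COPB2 rose under both fits. The falls numbered 0 to 3 with 1 library left out for the vesicle list and 1 to 3 for the motor list.

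Of 82 cytosolic ribosomal proteins, 8 rose and 13 fell (9.76% and 15.9%), with a median of -0.05 under both fits, and 5 rose and 22 fell with the trends removed (6.1% and 26.8%). RPL5, which carries ribosomal RNA to the large subunit, rose from 672 ± 8.08 to 743 ± 7.81 FPKM as deposited and was called as a fall with the trends removed (-0.11). With 1 library left out the falls numbered 3 to 11 and the rises 5 to 8. Of 79 mitochondrial ribosomal proteins, 9 rose and 19 fell (11.4% and 24.1%), and 3 rose and 20 fell with the trends removed (3.8% and 25.3%). MRPL37 fell from 111, 112 and 112 FPKM to 97.9, 101 and 98.2 FPKM under both fits, and MRPS35 and MRPS9 rose under both. The falls numbered 6 to 15 with 1 library left out.

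Of 77 nuclear genes of oxidative phosphorylation, 9 rose and 9 fell (11.7% each), and 2 rose and 23 fell once the trends were removed (2.6% and 29.9%, against 6.19% and 5.75% of all genes). Falls in that fit were more frequent among highly expressed genes, as given above, so 5.75% is a low mark here. UQCRC2 of complex III went from 49.8, 46.4 and 45.8 FPKM to 64.3, 65.1 and 65.0 FPKM and, like NDUFS1 of complex I, rose under both fits. Complex IV had 0 of 10 subunits called by limma as deposited (2 at unadjusted p under 0.05, and 1 fall by limma-voom on the recovered reads) and 5 falls with the trends removed. ATP synthase had 1 rise and 3 falls of 15, then 0 and 6. As deposited the falls of the list numbered 1 to 7 with 1 library left out. None of the 13 listed mitochondrially encoded genes changed by limma (0 at adjusted and 0 at unadjusted p under 0.05) or by limma-voom (0). COX3 was at 6248 ± 108 and 6050 ± 292 FPKM. Outside that list, the mitochondrial tRNA gene TRND fell from 55.2 ± 4.92 to 36.0 ± 10.9 FPKM (limma adjusted p = 0.0151). It lost its call when at least 1 library was left out.

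Of 41 genes of sterol and fatty acid synthesis, 10 rose and 11 fell (24.4% and 26.8%), and 3 rose and 6 fell with the trends removed (7.32% and 14.6%). HMGCS1, an early enzyme of sterol synthesis, went from 11.7 ± 0.153 to 16.3 ± 0.861 FPKM and rose under both fits. DHCR7, a late enzyme of cholesterol synthesis, fell from 53.6 ± 1.17 to 46.5 ± 1.6 FPKM, and FASN, the fatty acid synthase, from 119 ± 1.68 to 108 ± 2.06 FPKM, both under both fits. The 10 that rose had a median GC of 40.7% and the 11 that fell 57.6%. Without 1 library the rises numbered 6 to 11 and the falls 6 to 10.

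Of 40 genes of glycolysis and the hypoxia response, 7 rose (17.5%) and 10 fell (25.0%), and 2 rose and 3 fell with the trends removed. HIF1A, the hypoxia-inducible subunit, went from 5.22, 4.68 and 4.52 FPKM to 8.95, 7.51 and 8.01 FPKM (0.66, or 0.35 with the trends removed). SLC16A1, a lactate transporter, rose under both fits too. The falls were glycolytic enzymes for the most part, GPI, ENO1, PGAM1, PKM, ALDOA and TPI1 by 0.09 to 0.13, and GPI alone of these also fell with the trends removed. GPI and ENO1 kept their calls in all 6 fits that leave out a library. The falls of the list numbered 4 to 8, lowest without co-culture 10:2 replicate 1.

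**Figure D5:**
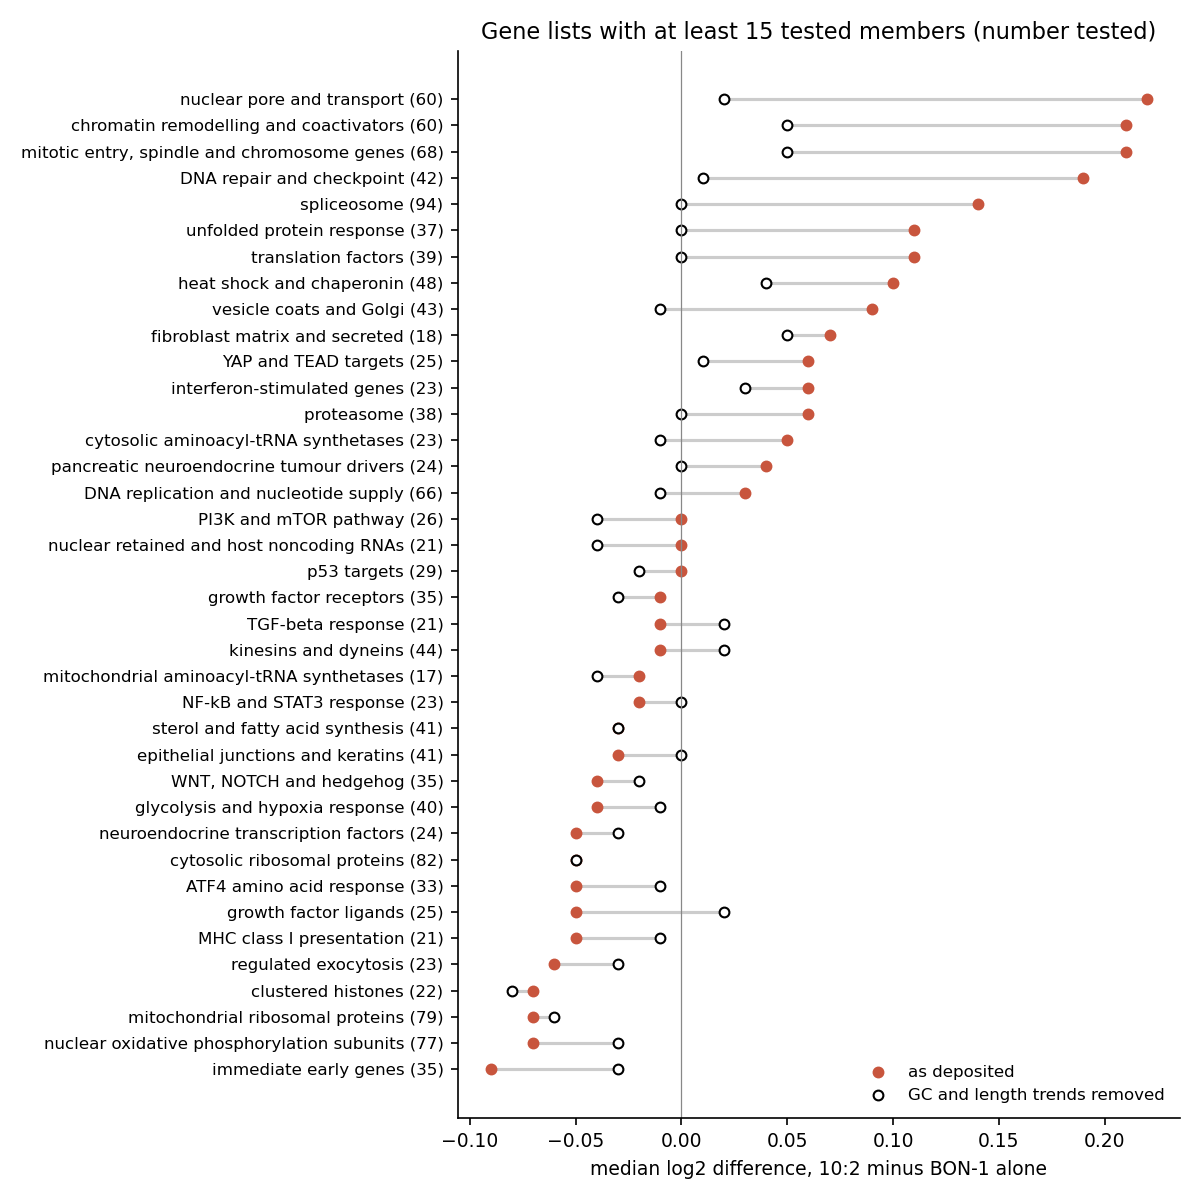
Median log2 difference (10:2 minus BON-1 alone) of the gene lists with at least 15 tested members, as deposited (red) and with GC and length trends removed (open); the number tested stands in brackets. As deposited the medians run from -0.09 (immediate early genes) to 0.22 (nuclear pore and transport), and with the trends removed they lie between -0.08 and 0.05.

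Outside the lists, the largest protein-coding rises with a mean of at least 5 FPKM included TFRC, the transferrin receptor, from 22.1, 21.8 and 20.9 FPKM to 39.1, 35.5 and 38.9 FPKM. IQGAP1, a scaffold of the actin cortex, went from 15, 13.4 and 14.4 FPKM to 25.6, 24.5 and 25.3 FPKM, SERINC1, a membrane protein, from 6.33 ± 0.273 to 11.8 ± 0.868 FPKM, and EXOSC9, of the RNA exosome, from 7.19 ± 0.364 to 13.2 ± 1.7 FPKM. All 15 largest rises kept their call with any 1 library left out, and all 15 were also called with the trends removed. ZNF664, a zinc finger gene with a GC content of 48.0%, joined the 10 largest rises there, with 12.2, 12.8 and 13.1 FPKM alone and 20.7, 19.1 and 20.2 FPKM at 10:2.

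Of the 15 largest falls, 9 lost the call when at least 1 library was left out. Those that kept it were ALYREF, an adaptor of mRNA export (196 ± 9.23 to 148 ± 13.9 FPKM), TRNP1 (198 ± 6.74 to 157 ± 13.6 FPKM), SYNE4, NR4A1, FOXL2 and TPGS1. With the trends removed the largest fall was that of AKR1C1, a steroid-reducing aldo-keto reductase that is induced by oxidants: it stood at 41.5, 40.2 and 39.2 FPKM alone and at 33.7, 33.1 and 32.9 FPKM at 10:2. The groups did not overlap, and its difference was -0.27 as deposited and -0.50 with the trends removed.

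Among noncoding RNAs, NORAD, which binds PUMILIO proteins, went from 17.0, 16.7 and 16.8 FPKM to 29.9, 28.6 and 28.5 FPKM, and TUG1 from 3.84, 4.11 and 3.75 FPKM to 7.82, 6.56 and 6.85 FPKM, both under both fits. NEAT1, the core of paraspeckles, and MALAT1, a nuclear speckle RNA, rose as deposited alone, by 0.40 and 0.52. SNORD139 fell from 99.8, 95.6 and 80.2 FPKM to 60.6, 56.5 and 59.1 FPKM. It is a short RNA and had no GC value.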

How the data were processed

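Gene expression was measured by RNA-seq of polyadenylated RNA in 12 libraries, 3 for each of 4 groups, and the 6 libraries of BON-1 alone and co-culture 10:2 were compared. The authors deposited FPKM per gene (54261 genes); per the submitters' processing notes reads were aligned with HISAT2 to hg38 and counted with featureCounts, with versions not given in the sources used here. Groups come from the labels, and columns were matched by name. Since FPKM are not counts, log2(FPKM + 1) was fitted with limma (version 3.58.1, under R 4.3.3). All 12 libraries entered the fit, each group with its own mean (8 residual degrees of freedom), with a variance trend and Benjamini-Hochberg adjustment over the 12597 genes with FPKM of at least 1 in at least 3 of the 6 libraries. Adjusted p under 0.05 was called changed. FPKM values were whole multiples of 1 read in 99.9738% of 267349 nonzero values (tolerance 1e-07 reads), which gave the depths and an alternative limma-voom test. Trends on GC content and length (splines with 5 degrees of freedom, 11883 genes) were removed in a second fit. GC content is that of the longest GENCODE transcript. The fit was also run on simulated reads that held no trend on GC, length or level between groups. That run cannot speak to calls made under the trends described above. Depth was 11703624 to 21882537 assigned reads.

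The genes and lists were chosen with earlier results of these data known. Genes named as the largest changes were past the threshold of their fit, at a mean of at least 5 FPKM in the higher group and without overlap. They were the 15 largest protein-coding rises and falls, the 10 largest of each with the trends removed, and the 3 largest noncoding rises and falls. Members of the fibroblast lists and the 4 members of each other list with the smallest p were named without these conditions. Other genes and all families were chosen after their values were seen. Alternatives changed the pseudocount, filter, scaling, variance model, replicate block, depth and libraries used. Tables used Python 3.11.15 with pandas 2.3.3. Some genes that this rule names are not reported here.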

Additional observations from a re-analysis of the deposited data

How the results depend on the processing

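As deposited 3641 genes changed (2614 rises, 1027 falls). With GC and length trends removed 1418 genes changed (735 rises, 683 falls), and with 1 library also left out, an alternative chosen after seeing the data, 929, 871 and 964 without BON-1 alone replicates 1, 2 and 3 (519, 488 and 544 rises; 410, 383 and 420 falls) and 1039, 1114 and 957 without co-culture 10:2 replicates 1, 2 and 3 (572, 590 and 522 rises; 467, 524 and 435 falls). At a mean FPKM of at least 5 there were 2423 (1412 rises), without a filter 614 falls, and at a fold of at least 2 there were 20 (11 rises, 9 falls). With 1 library left out the changed genes numbered 2625 to 3468, the rises 2125 to 2513 and the falls 485 to 955. The count stayed within 1.5 times the reported one with a pseudocount of 0.1 (3673), median-of-ratios scaling (3714), quantile normalization (3089), robust variances (3628), the 6 libraries alone (3570), limma-voom (4184), equal depth (3403) and protein-coding genes alone (3870). The cause of these differences was not tested, except that fewer libraries or genes entered some fits. Replicate numbers did not pair the libraries (correlations of same-numbered libraries -0.0353, 0.011 and 0.0338). With the replicate block 3237 genes changed, and with the block and the trends removed 1226 (654 rises, 572 falls). A called gene changed sign only where the trends were removed, among those named above. With the trends removed, with or without the block, the log2 difference of FN1 was -0.09, of PAM -0.06 and of RPL5 -0.11. With 1 library left out as well, it was -0.11, -0.1, -0.07 or -0.09 for FN1, -0.04, -0.05, -0.06 or -0.07 for PAM, and -0.09, -0.1, -0.11, -0.12 or -0.13 for RPL5. There ATF4 reached 0.01, KRT18 0, KRT7 0.01, PCSK1 -0.02, PCSK1N 0.02, SCG3 -0.03 and -0.04, and TPI1 0 and 0.01, each with adjusted p over the threshold in limma.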
